A study of Homo sapiens with 4 samples.

Results

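A set of 10 genes for plasma membrane carriers of glutamate, neutral amino acids and cystine was followed in GIST-T1 cells, an established line from a gastrointestinal stromal tumor, after transfection with a mimic of the microRNA miR-335. The members were the 10 genes SLC1A1, SLC1A2, SLC1A3, SLC1A4, SLC1A5, SLC3A2, SLC7A5, SLC7A11, SLC38A1 and SLC38A2, taken by the gene name that the scanner files give each probe, out of 36337 gene names on the array. They were represented by 14 of 50599 non-control probes. Of these, 9 probes for 7 genes were detected on all 4 arrays, and for each of them the mimic and control means lay within 1.5-fold of each other. The other 5 probes included the only probes for SLC1A1 and SLC1A2, which were detected in the control cells and not in the mimic cells, and they allow bounds at most.

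The study screened for epigenetically silenced microRNAs in gastrointestinal stromal tumors, and with these arrays asked what miR-335 does to the transcripts of such cells. Among genes over 1.5-fold lower with the mimic it reported an enrichment of D-aspartate transport genes. Which genes stood behind that term was not examined here. GIST-T1 cells received 100 pmol of a miR-335 mirVana mimic or 100 pmol of mirVana miRNA mimic Negative Control #1 by nucleofection, and total RNA was taken at 48 h. From each group, 2 samples of 100 ng RNA were labelled with Cy3 and hybridised, each to 1 array, and all 4 arrays shared 1 slide and 1 scan. Both groups were the same line with no other treatment, and a single line is the whole model here. A second line in the description of the mimic samples names miR-34a, whereas their titles and transfection labels give miR-335, and the groups follow the titles and transfection labels. The labels do not say whether the samples of a group came from separate cultures, so the p-values measure only the spread between these arrays, which may be technical. An exact two-sided permutation test of 2 arrays against 2 cannot go below p = 0.333.

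Amino acids enter cells through carriers that differ in what they couple to the substrate. The SLC1 glutamate carriers use the sodium gradient to take up glutamate and aspartate and are best known for clearing glutamate at synapses, where SLC1A2 and SLC1A3 are typical of astrocytes and SLC1A1 of neurons. SLC1A4 and SLC1A5 belong to the same family but exchange small neutral amino acids, and SLC38A1 and SLC38A2 take up glutamine and other neutral amino acids with sodium. SLC3A2 is a glycoprotein that carries no amino acid by itself and brings a light chain to the membrane: SLC7A5 for large neutral amino acids such as leucine, or SLC7A11 for the exchange of extracellular cystine against glutamate, which feeds glutathione synthesis.

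MicroRNAs pair with transcripts mainly through the seed at their 5′ end. The sequences of both arms of the miR-335 hairpin, credited to RefSeq, are shown because the labels do not say which arm the mimic delivers. Capitals mark the seed, bases 2 to 8, and the hairpin lies on chromosome 7 in GRCh38.p14.
hsa-miR-335-5p: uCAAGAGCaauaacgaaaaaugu
hsa-miR-335-3p: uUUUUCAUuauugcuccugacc
The 60-base probe sequences of the members were searched for matches to the seed of the 5p arm only. The seed of the 3p arm was not searched for. The letters GCTCTTGA were found in 0 of the 14 member probes, against 0.0988% of all non-control probes, and GCTCTTG in 0 of 14, against 0.437%. CTCTTGA, which overlaps both, was found in 1 member probe, that of SLC7A11, against 0.464% of all probes, and its core CTCTTG in the same probe only, against 1.92%. On the opposite strand none of the 4 strings occurred in a member probe, where they occurred in 0.115%, 0.466%, 0.581% and 2.27% of all probes in the same order. A probe covers a small stretch of its transcript, so these matches describe the probes and not the transcripts. The stretch of the SLC7A11 probe around the match is shown with CTCTTGA in capitals, at chr4:139085442-139085470 on the minus strand of hg19.
SLC7A11 probe, 29 bases: tcttatggaaaCTCTTGAtgcatgtgctt

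Values are given as log2 processed signal minus the 75th percentile of the array, called the normalized value, and differences are mimic minus control on this log2 scale. The scanner software marks a spot as well above background or not, called detected here, and the lowest processed signal of a detected probe was 22.1 and 24.0 on the mimic arrays and 23.2 and 19.9 on the control arrays. Between 40.3% and 41.9% of non-control probes were detected per array, and the spike-in probes were a median of 0.19 higher on the mimic arrays in normalized value (log2). All 6 markers of gastrointestinal stromal tumors and interstitial cells of Cajal (KIT, ANO1, ETV1, PRKCQ, PDGFRA and CD34) were detected on all 4 arrays. Of the 3 astrocyte markers GFAP, S100B and AQP4, and of the 2 leukocyte markers, 0 were detected on any array. Of the 2 endothelial markers, PECAM1 was detected on 0 arrays and CDH5 on 2. DES of the 2 smooth muscle markers and EPCAM of the 2 epithelial markers were detected on all 4 arrays, and the other marker of each pair, MYH11 and CDH1, on 0.

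**Figure D1:**
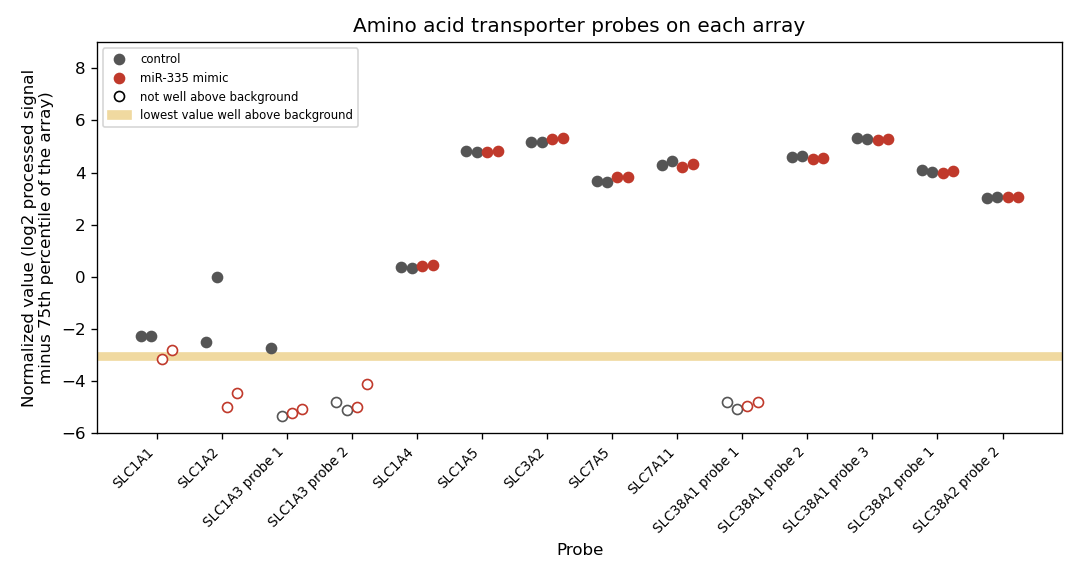
Normalized value (y axis, log2) of the 14 probes on each of the 2 control arrays (grey) and 2 mimic arrays (red); open circles were not well above background, and the band spans the lowest value well above background on the 4 arrays. The SLC1A1 and SLC1A2 probes are filled on the control arrays only, 9 probes are filled on all 4 arrays with groups close together, and heights of different probes are not comparable.

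SLC1A1, which encodes the neuronal and epithelial glutamate carrier EAAC1, had 1 probe, at chromosome 9, 4587002 to 4587061 on the plus strand of hg19. Its normalized values were −3.16 and −2.83 on the mimic arrays and −2.27 and −2.29 on the control arrays. The groups did not overlap, but neither mimic array detected the probe, whereas both control arrays did. The processed signals were 21.2 and 25.7 against 37.1 and 37.2. The control level was at least 1.61-fold above the mimic level, a bound that sets the undetected probe at the detection limit of each mimic array or at its own value, whichever was higher. The probe did not pass in the fit over all probes (limma adjusted p = 0.0881), which takes the undetected mimic values as measured, so no difference or interval is given. With normexp background correction the bound was 1.11-fold, and with the detection limit placed at the 5th percentile of detected probes it was 1.10-fold. In RNA from whole cultures, fewer cells with a transcript and less transcript per cell cannot be told apart.

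SLC1A2, which encodes the main astrocytic glutamate carrier GLT-1, had 1 probe, at chromosome 11, 35273089 to 35273148 on the minus strand. Its normalized values were −5.01 and −4.46 on the mimic arrays, where it was not detected, and −2.52 and 0.00 on the control arrays, where it was. Both control values were above both mimic values, but the control arrays were 2.52 apart on the log2 scale (SD 1.78), where the mimic arrays were 0.55 apart. The level was at least 3.39-fold higher in the control cells, and the probe did not pass in the fit, with the same limit (limma adjusted p = 0.149). The bound rested on control replicate 2: leaving that array out lowered it to 1.41-fold, and leaving out the other control array raised it to 8.12-fold. It was 1.86-fold with normexp, and 2.22-fold with the 5th percentile as the detection limit.

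The SLC1A2 spot of control replicate 2 was uneven. Its processed signal was 181.9, against 31.2 in control replicate 1. Its mean pixel signal was 222.5 with a median of 148 and a pixel SD of 181.1 over 46 pixels, that is, an SD of 0.814 of the mean. The median of this ratio was 0.208 among the 2801 spots of that array within 20% of its mean signal, and 99.9% of them were more even. In control replicate 1 the ratio was 0.449, above 97.8% of 6988 like spots. Neither spot carried the software's outlier flag. Computed from median pixel signals, an alternative chosen after seeing the data, the bound was 5.06-fold. That alternative also takes the detection limit from median pixel signals, so 5.06-fold and 3.39-fold are not set against the same limit. The SLC1A1 bound was higher with it as well, at 1.76-fold beside 1.61-fold. The part of the uneven spots in the SLC1A2 result beyond these values was not tested.

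**Figure D2:**
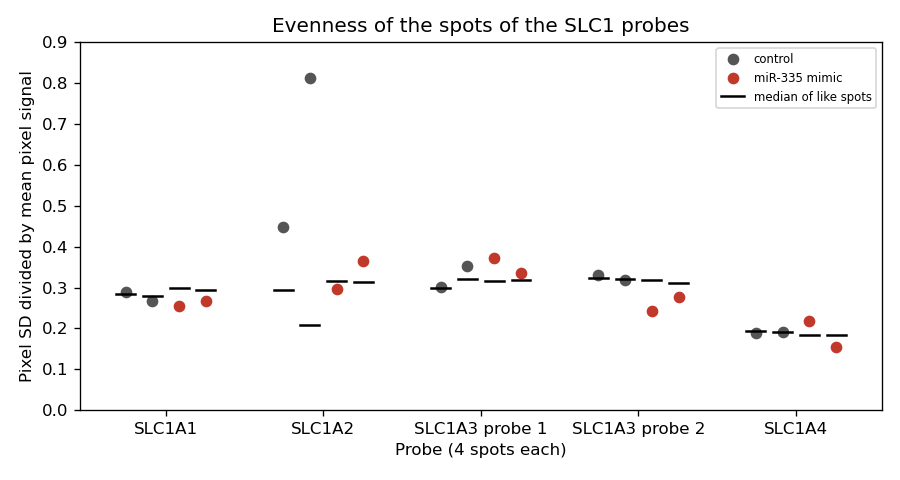
Pixel SD divided by mean pixel signal (y axis) for each of the 4 spots of the SLC1A1, SLC1A2, SLC1A3 and SLC1A4 probes, with control spots in grey and mimic spots in red; black bars give the median of spots of the same array within 20% of the same mean signal. The SLC1A2 spot of control replicate 2, at 0.814, stands above the other spots, which lie near their bars except that of control replicate 1, at 0.449.

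SLC1A3, which encodes the astrocytic glutamate carrier GLAST, had 2 probes, and neither entered the test. The probe at chromosome 5, 36609249 to 36609308 on the plus strand gave −5.24 and −5.07 on the mimic arrays and −2.74 and −5.35 on the control arrays. It was detected on control replicate 1 alone, with a processed signal of 26.7 against 4.46 on control replicate 2, and no fold is given. The probe at 36688204 to 36688263, annotated to another transcript of the gene, was detected on 0 of 4 arrays. Of the 3 glutamate carriers, none had a probe detected on a mimic array.

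**Figure D3:**
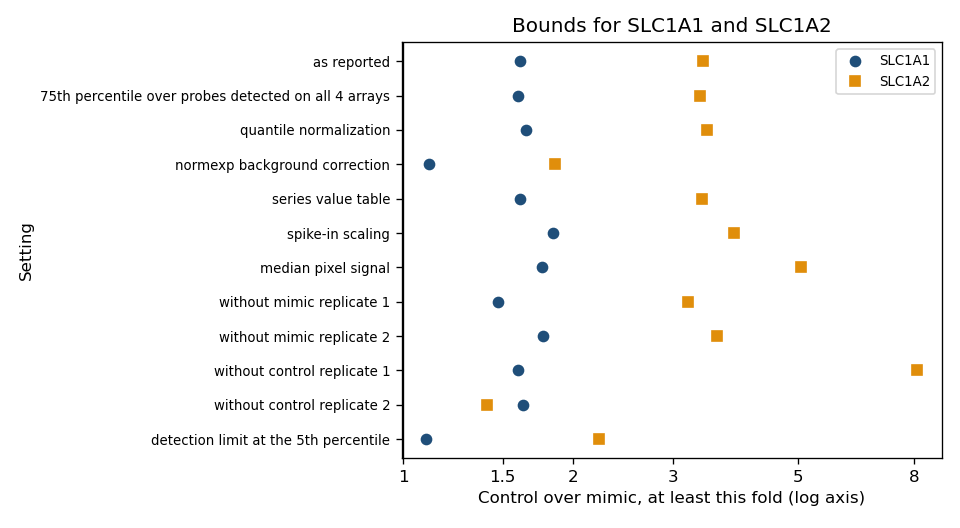
Lower bound of the control over mimic fold (x axis, log scale) for SLC1A1 (circles) and SLC1A2 (squares) under each setting that could move it. SLC1A1 lies between 1.10 and 1.84, and SLC1A2 moves from 1.41 without control replicate 2 to 8.12 without control replicate 1.

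The exchangers of neutral amino acids in the same family were detected on every array. SLC1A5, or ASCT2, a glutamine exchanger that many tumor cells express, gave 4.78 and 4.82 on the mimic arrays and 4.82 and 4.77 on the control arrays, so the groups overlapped. The difference was 0.00 (SE 0.04, 95% interval −0.12 to 0.12, limma adjusted p = 0.996). SLC1A4, or ASCT1, which exchanges alanine, serine and cysteine, gave 0.41 and 0.46 against 0.36 and 0.34 (chromosome 2, 65250035 to 65250094, plus strand). Its groups did not overlap, and the difference of 0.08 (SE 0.04, 95% interval −0.04 to 0.21) did not pass the test (limma adjusted p = 0.307).

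The heavy chain and its leucine-carrying partner had the lowest unadjusted p among the probes detected on all 4 arrays. SLC3A2, the heavy chain of CD98, gave 5.30 and 5.31 on the mimic arrays and 5.17 and 5.19 on the control arrays. Its groups did not overlap, and the mimic level was 1.09-fold the control level, a difference of 0.12 (SE 0.04, 95% interval 0.02 to 0.23; limma adjusted p = 0.162). SLC7A5, or LAT1, gave 3.84 and 3.82 against 3.68 and 3.64 (chromosome 16, 87863907 to 87863966, minus strand). Its groups did not overlap either, and the mimic level was 1.12-fold the control level, a difference of 0.17 (SE 0.04, 95% interval 0.06 to 0.28; limma adjusted p = 0.118). Both passed when the variance was moderated along intensity (limma adjusted p = 0.0191 for SLC3A2 and 0.0107 for SLC7A5), a setting under which 15.2% of all tested probes passed. Both differences turned negative, to −0.06 and −0.02, when arrays were scaled by their spike-in probes, which moved the median of all probes to −0.20. Gene copies related to SLC7A5 exist in the genome, and whether its probe also takes up their transcripts was not tested. The SLC3A2 probe, which reads without a stop in its first frame, lies at chr11:62652689-62652748 on the plus strand of hg19.
SLC3A2 probe: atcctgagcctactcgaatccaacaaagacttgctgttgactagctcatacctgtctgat

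SLC7A11, or xCT, the light chain of the cystine and glutamate exchanger, was the member whose probe held a match to part of the miR-335-5p seed. Its normalized values were 4.20 and 4.31 on the mimic arrays and 4.30 and 4.44 on the control arrays (chromosome 4, 139085433 to 139085492, minus strand). The higher mimic value lay above the lower control value, so the groups overlapped. The difference was −0.12 (SE 0.07, 95% interval −0.33 to 0.10, limma adjusted p = 0.397), and the lower end of the interval corresponds to a mimic level of 0.796 of the control level.

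The system A carriers were each measured by more than 1 probe, and the differences of the detected probes of a gene lay close to 0. SLC38A1, or SNAT1, gave 4.52 and 4.54 against 4.61 and 4.64 with the probe at chromosome 12, 46577061 to 46577120, minus strand, a difference of −0.09 (SE 0.04, limma adjusted p = 0.242). Its probe at 46582007 to 46582066 gave 5.24 and 5.29 against 5.31 and 5.30, a difference of −0.04 (limma adjusted p = 0.593). In both, every mimic value was below every control value, and neither passed the test. The third SLC38A1 probe, at 46663538 to 46663597 and annotated to a separate transcript, was detected on 0 of 4 arrays.

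SLC38A2, or SNAT2, which cells deprived of amino acids are known to raise, gave 3.99 and 4.07 on the mimic arrays and 4.08 and 4.03 on the control arrays with the probe at chromosome 12, 46752710 to 46752769, minus strand. The probe at 46754625 to 46754684 gave 3.04 and 3.04 against 3.02 and 3.06. The groups overlapped for both, with differences of −0.03 and 0.00 (limma adjusted p = 0.734 and 0.956).

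**Figure D4:**
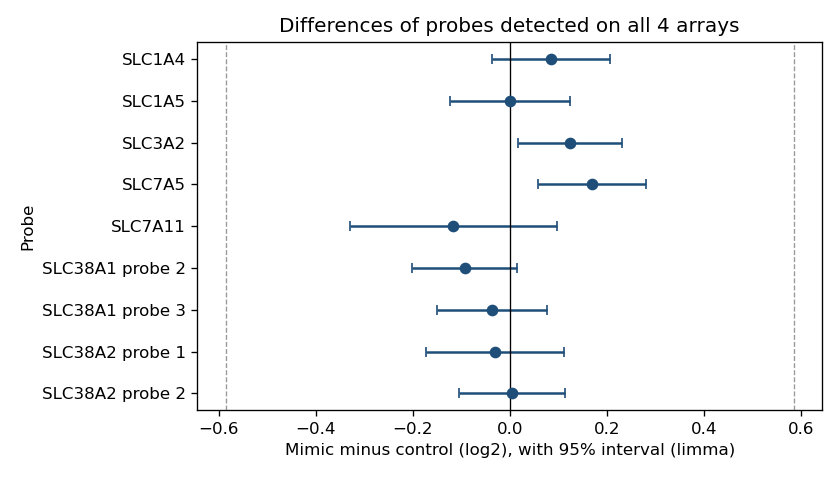
Mimic minus control difference (x axis, log2) of the 9 probes detected on all 4 arrays, with 95% intervals from limma; dashed lines mark 1.5-fold. All 9 intervals lie inside the dashed lines, between −0.33 and 0.28.

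Of the 14 member probes 11 entered the test, and 0 of 11 passed the adjusted threshold of 0.05 in limma, where 2.62% of the 20328 probes tested passed. At an unadjusted p under 0.05 the counts were 4 of 11 members (SLC1A1, SLC1A2, SLC3A2 and SLC7A5) and 5148 of the 20328 probes tested. For SLC1A1 and SLC1A2 this p takes undetected mimic values as measured, so their part of the count carries no weight. Among the 9 member probes detected on all 4 arrays, only those of SLC3A2 and SLC7A5 were counted. By size alone, 2 of 11 member probes (SLC1A1 and SLC1A2) were over 1.5-fold lower with the mimic, where 1.47% of all tested probes were, and 0 were over 1.5-fold higher, where 2.43% were. These 2 probes entered the test through the control arrays alone, so their count says nothing beyond their bounds. Among the 9 probes detected on all 4 arrays, the groups did not overlap for 5 and overlapped for 4, against 59.4% without overlap among all 19352 such probes. The 9 differences ran from −0.12 to 0.17 with a median of 0.00, beside a median of −0.01 over all such probes. Their 95% intervals all lay within 1.5-fold (0.585 on the log2 scale), also under each of the 15 other settings of scaling, filter, variance and left-out array that were fitted, where the interval ends reached −0.51 to 0.39. The spread was small, with a largest group SD of 0.09, and no member spot was saturated or flagged as an outlier.

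Genes around these carriers were counted in the same fit, with 1 probe, the brightest tested, per gene. Of 40 other amino acid transporters on the array 14 were tested, and 0 passed the adjusted threshold in either direction. The median difference was −0.03, beside −0.02 over all 15454 genes tested. Of 18 enzymes of glutamate and glutamine metabolism 15 were tested and 0 passed, with a median of 0.01. Their differences ran from −0.46 to 0.25, and the lowest limma adjusted p among them, 0.0504, was just above the threshold. Of 20 genes for amino acid sensing by mTORC1 19 were tested and 0 passed, with a median of −0.03. Among all 20328 probes tested 2.62% passed, so 0 passing genes in lists this short do not show that their genes were unchanged. At an unadjusted p under 0.05 these 3 lists held 1 of 14, 3 of 15 and 3 of 19 tested genes, beside 5148 of the 20328 probes tested.

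In the list of cystine and glutathione genes, 12 of 13 were tested, 1 fell and 1 rose, where 2.62% of all probes tested passed in either direction, with a median of 0.01. CTH, which makes cysteine from cystathionine, had normalized values of −0.29 and −0.26 on the mimic arrays and 0.46 and 0.43 on the control arrays. It fell by 0.72 on the log2 scale (SE 0.04, limma adjusted p = 0.0314). GCLM, the modifier subunit of the enzyme that starts glutathione synthesis, had 4.14 and 4.15 against 3.71 and 3.65. It rose by 0.46 (SE 0.04, limma adjusted p = 0.0407). Groups did not overlap for either gene, as for 59.4% of all probes detected on all 4 arrays, and both kept their direction under all settings tried. Both genes were named because they passed on these same 4 arrays, so these traits are no further support. With any 1 array left out, the difference ran from −0.74 to −0.70 for CTH and from 0.43 to 0.49 for GCLM. The limma adjusted p of CTH and GCLM were above 0.05 with no filter on dim probes (0.41 and 0.444) and with detection on 1 array as the filter (0.0957 and 0.0975). The same held from median pixel signals (0.0639 and 0.0549) and with a block for replicate number (0.125 and 0.131). SLC7A11, which supplies cystine to the same route, did not pass, as given above.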

How the data were processed

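Each array held 60-base probes on a 1-colour Agilent design. The deposited intensity columns were made by the authors with Agilent Feature Extraction 10.7 (10.7.3.1 per the file headers), which corrects each spot for background. Processed signals were used, with the other spot columns per the file headers: detection, saturation and outlier flags, and pixel statistics. The deposited value table held the same signals on a linear scale, rounded (relative difference at most 0.00497) and not centred, with medians of 12.4 and 11.9 on the mimic arrays and 11.2 and 12.1 on the control arrays, and served as an alternative. Probe names, transcripts and hg19 positions come from the files, and miRNA sequences from RefSeq.

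Spots with outlier flags were left out, and log2 processed signals were averaged over the spots of a probe. These averages were then centred on the 75th percentile of non-control probes per array. The 20328 probes that both arrays of the mimic or of the control group detected were fitted with limma 3.58.1 (R 4.3.3), with Benjamini-Hochberg adjustment over all of them, after the script was tested on simulated data. Arrays give no read depth: their number, 2 per group, limits the precision. For tested probes undetected in 1 group, bounds are given in place of differences, beside the adjusted p of the fit. All members are named, with genes of 4 further lists only where they passed or were over 1.5-fold while detected on all 4 arrays. Members and lists were chosen with earlier results of these data known. Alternatives covered scaling, background correction, filter, variance model, replicate block, left-out arrays, fold and detection limits. Other member probe sequences are not reported here.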

Additional observations from a re-analysis of the deposited data

How the results depend on the processing

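Of the 11 member probes, 0 passed under most settings. With spike-in scaling 7 passed, all lower, where 46.8% of all tested probes passed (9005 lower and 505 higher). They were the probes of SLC1A1, SLC1A5 and SLC7A11, both of SLC38A1 and both of SLC38A2. With variance moderated along intensity 3 passed (SLC1A2, SLC3A2 and SLC7A5), where 15.2% of all tested probes did. The SLC1A1 and SLC1A2 probes entered the test through the control arrays alone. Spike-in scaling also turned SLC1A4 to −0.10, SLC1A5 to −0.19, SLC3A2 to −0.0618, SLC7A5 to −0.0173 and 1 SLC38A2 probe to −0.18. SLC1A5, at 0.00, was −0.0029 with quantile normalization and −0.0215 with normexp, and the same SLC38A2 probe −0.0099 with normexp. With any 1 array left out, SLC1A5 ran from −0.0256 to 0.0264 and the SLC38A2 probes from −0.0688 to 0.0096 and from −0.0126 to 0.0206. The count over 1.5-fold lower, 2 as reported, was 1 with normexp, 1 at a 2-fold limit, 1 where all 4 array pairings had to pass, 0 where all 4 arrays had to detect the probe, and 1 to 2 with an array left out (SLC1A1 lost without mimic replicate 1). The SLC1A1 bound was 1.60 with the percentile over detected probes, 1.65 with quantile normalization, 1.11 with normexp, 1.84 with spike-ins, 1.76 from median pixels, 1.10 at the 5th percentile and 1.47 to 1.77 with an array left out, and that of SLC1A2 1.41 to 8.12. Over all probes 532 passed, 1550 with normexp, 9510 with spike-ins, 3083 along intensity, 196 from median pixels, 0 with no filter or 1 array as the filter, and 0 to 8 with an array left out, where the lone array of a group is taken to vary like the other group. The 15 tested glutamate and glutamine enzymes held 1 passing gene with the percentile over detected probes, quantile normalization, normexp or the filter on all 4 arrays. They held 2 along intensity and 9 with spike-ins. With spike-ins 7 of 14 other transporters, 14 of 19 sensing genes and 6 of 12 cystine and glutathione genes passed, where 46.8% of all tested probes did. Along intensity 1 of 19 sensing genes and 3 of 12 cystine and glutathione genes passed, where 15.2% of all tested probes did. CTH and GCLM, the 2 passing cystine and glutathione genes, dropped to 0 with no filter, the filter on 1 array, median pixels or any array left out (0 to 0). The labels do not say whether replicate numbers pair the arrays, and r = 0.03 between same-numbered deviations cannot settle it. With a replicate block 0 member probes, 0 of all probes and 0 cystine and glutathione genes passed. Why these counts moved was not tested. A slide or scan block was not run, since there was 1 of each. Signal limits SLC1A1, SLC1A2 and SLC1A3, which lie near or below the detection limit on mimic arrays. For SLC1A1 and SLC1A2 only a bound on these 4 arrays can be read. Its direction is no separate support, since both probes entered through the control arrays, where they were higher. For SLC1A3 no bound can be read.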
